A study of Mus musculus with 6 samples.

Results

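Ribosome biogenesis genes were taken as the genes that the deposited annotation places in the KEGG pathway for ribosome biogenesis in eukaryotes, 74 of the 14701 genes in the tables. They were measured by RNA sequencing in IEC 4.1, a mouse intestinal epithelial cell line by its label. One group (replicates 1, 2 and 4) received 10 ng/ml IFN gamma for 6 h, and the other (replicates 2, 3 and 4) was untreated Ctrl cells, whose time of harvest is not given. No other agent, genotype or age is given for either group. Both groups were grown to the same stated confluence, and whether the 3 replicates of a group were separate cultures is not given, so the spread behind the p-values may be technical only.

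The libraries held between 17490689 and 18678543 counts. The treatment showed in its targets: the transcription factor Irf1 stood at 1122, 1148 and 1145 CPM (counts scaled to library depth) in IFN gamma cells, against 100.9, 90.1 and 95.2 CPM in Ctrl cells. Of 12 epithelial identity markers, 8 had a row and none exceeded 0.533 CPM in any library; their summed level was 0.53 to 0.834 CPM in IFN gamma cells and 0.739 to 1.12 CPM in Ctrl cells. Of 10 mesenchymal markers, 9 had a row and summed to 6070 to 6554 CPM in IFN gamma cells and 6494 to 6712 CPM in Ctrl cells, so the epithelial label is not borne out by its markers. Of the 8 mesenchymal markers tested, 2 rose and 6 fell, and their part in the results below was not tested. Leukocyte markers, 5 of 10 with a row, summed to 20.0 to 21.8 CPM in IFN gamma cells and 22.5 to 25.4 CPM in Ctrl cells. Endothelial markers, 3 of 5 with a row, summed to 0.278 to 0.53 CPM in IFN gamma cells and 0.211 to 0.32 CPM in Ctrl cells. These are bulk samples, in which fewer cells of a type and less RNA per cell cannot be told apart.

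Ribosomes are built in the nucleolus. RNA polymerase I makes a long precursor RNA, small nucleolar RNPs (snoRNPs) modify it, and large assemblies such as the small subunit processome fold and cut it as ribosomal proteins join. Nucleases trim the spacers, GTPases and AAA ATPases strip assembly factors from the large subunit, and export factors carry both subunits to the cytoplasm, where the last factors leave. The KEGG list covers these steps but not the ribosomal proteins themselves, and it includes general factors such as Ran, Xrn1 and Drosha that also serve other pathways.

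As a whole the ribosome biogenesis genes were lower in IFN gamma cells, with small changes in single genes. Of 71 members that passed the filter on low counts, 35 fell and 3 rose at an adjusted p under 0.05 in edgeR's quasi-likelihood test, and 33 did not pass. The members that fell made up 49.3% of those tested, beside 18.1% of all 11423 genes tested, and those that rose made up 4.23%, beside 19.9% of all genes tested. The median log2 fold change (IFN gamma over Ctrl) was -0.17 for the members and 0.01 for all genes tested, and single members lay between -0.71 and 0.41. Falls exceeded 1.5-fold in 4 members, Pwp2, Nol6, Rcl1 and Mdn1. The 3 members left out by the filter were Rpp25, Nxf3 and 1700009N14Rik.

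The libraries of each group lay close together. All members summed to 8430, 8520 and 8772 CPM in IFN gamma cells, against 9669, 9635 and 9471 CPM in Ctrl cells. The lowest Ctrl library was thus above the highest IFN gamma library, and the mean sum fell by 10.6%. In 37 members (52.1%) every IFN gamma library was below every Ctrl library, against 23.3% of all genes tested. In 4 members, Xrn1, Pop4, Emg1 and Drosha, every IFN gamma library was above every Ctrl library (5.63%, against 24.7% of all genes tested). In TPM, a scale that corrects for gene length and library depth, the tested members had median levels of 61.8 TPM in IFN gamma cells and 79.6 TPM in Ctrl cells. The TMM scaling factors used for CPM (0.9717 to 0.9816 in IFN gamma and 1.016 to 1.033 in Ctrl libraries) were not applied to TPM. The TPM medians therefore give levels and not the size of the change. Levels in Ctrl cells spanned 3.26 to 891 TPM, with Ran at the top, and all genes tested had a median of 21.0 TPM there.

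**Figure D1:**
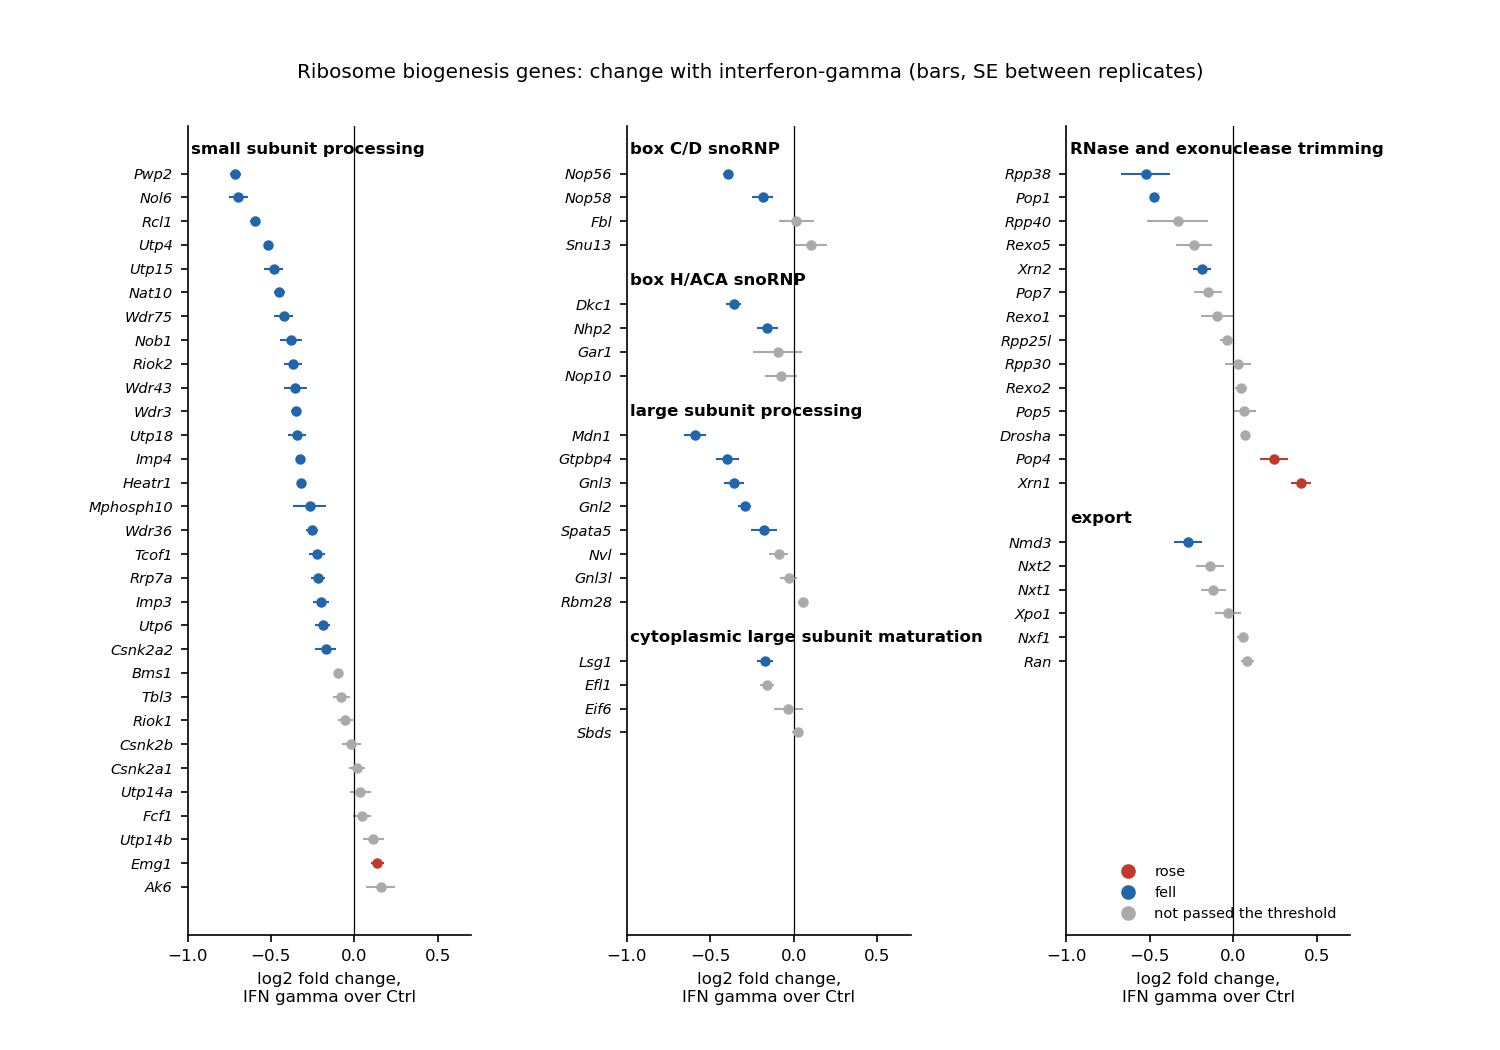
Log2 fold change (IFN gamma over Ctrl) of the 71 tested members, grouped by step; points are fitted values, bars are SE between replicates and colours give the call at an adjusted p of 0.05. The small subunit members reach from -0.71 to 0.16, with 21 of 31 called lower, while the export members lie between -0.27 and 0.08.

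Falls were then counted by step. The snoRNP, small subunit and large subunit proteins together had 30 falls and 1 rise among 47 tested members, which is 63.8% falling. Trimming nucleases, export factors and cytoplasmic large subunit factors together had 5 falls and 2 rises among 24 tested members. That is 20.8% falling, near the 18.1% of all genes tested, of which 19.9% rose. The 4 late small subunit factors, of which 2 fell, were counted with the small subunit, although they act largely in the cytoplasm. This grouping was made after the values were seen, and the difference between the steps was not tested.

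Box C/D snoRNPs guide methylation of ribosomal RNA, and each holds the proteins Nop56, Nop58, Fbl and Snu13. Of these 4, 2 fell and 2 did not pass, with a median log2 fold change of -0.09, which was -0.06 without Ctrl replicate 2 or IFN gamma replicate 1. The scaffold protein Nop56 (chromosome 2, 130274367 to 130279313) had 366, 377 and 360.0 CPM in IFN gamma cells, against 472, 495 and 481 CPM in Ctrl cells. Its groups were far apart, a fall of 0.39 ± 0.0279 on the log2 scale (± SE, n = 3 per group, edgeR adjusted p = 1.24e-06). Its partner Nop58 had 322, 321 and 359 CPM in IFN gamma cells, against 365, 394 and 382 CPM in Ctrl cells. The groups did not overlap, but IFN gamma replicate 4 came close to Ctrl replicate 2 (log2 fold change -0.19, adjusted p = 0.0103). Without IFN gamma replicate 2 the adjusted p of Nop58 was 0.0656, within 0.000289 to 0.1 over all 15 alternatives. The methyltransferase Fbl had 146, 171 and 148 CPM in IFN gamma cells, against 169, 140.1 and 152 CPM in Ctrl cells. Its groups overlapped fully (log2 fold change 0.02 ± 0.106, adjusted p = 0.877), and the sign turned with upper-quartile and total-count scaling. Snu13, which also binds a spliceosomal RNA, had 298, 312 and 364 CPM in IFN gamma cells, against 305, 315 and 288 CPM in Ctrl cells, with overlapping groups (log2 fold change 0.10, adjusted p = 0.223). The deposited counts of Snu13 were not whole numbers. Within one particle, then, Nop56 was lower while Fbl overlapped between the groups, and the difference between the 2 genes was not tested.

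Box H/ACA snoRNPs guide pseudouridylation, and their proteins are also part of telomerase. Of the 4 members, 2 fell and 2 did not pass, with a median log2 fold change of -0.13, which was -0.05 without Ctrl replicate 2 and -0.20 without Ctrl replicate 3. The pseudouridine synthase Dkc1 (chromosome X, 75095854 to 75109776) had 213, 208 and 228 CPM in IFN gamma cells, against 269.9, 287 and 276 CPM in Ctrl cells. All IFN gamma libraries were lower by a wide gap (log2 fold change -0.36 ± 0.0469, adjusted p = 8.9e-06). Nhp2, a small RNA-binding subunit, had 96.3, 98.5 and 101 CPM in IFN gamma cells, against 119, 104 and 107 CPM in Ctrl cells. Its groups were separated by a narrow gap (log2 fold change -0.16, adjusted p = 0.0337). Its call was lost without Ctrl replicate 2 (adjusted p = 0.182), without IFN gamma replicate 1 (0.0777) and without IFN gamma replicate 2 (0.0831), within 0.00242 to 0.182 over all 15 alternatives. The groups overlapped for the other two subunits, Gar1 (log2 fold change -0.10, adjusted p = 0.47) and Nop10 (log2 fold change -0.08, adjusted p = 0.419).

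Several members also carry snoRNA genes within their own gene span, as introns of nucleolar protein genes often do. RefSeq places snoRNA genes inside 5 of the 71 tested members (7.04%) and inside 273 of all 11423 genes tested (2.39%). These 5 hosts, Nop56, Nop58, Dkc1, Gnl3 and Wdr43, hold 16 snoRNA genes and all fell, with a median log2 fold change of -0.36. The 66 other tested members had 30 falls and 3 rises and a median of -0.15. Of all genes tested, 18.1% fell. How the 273 hosts among them moved was not counted, so whether hosts in general fell is not known here. The 5 member hosts summed to 1266 ± 49.0 CPM in IFN gamma cells and 1586 ± 48.2 CPM in Ctrl cells (± SD, n = 3 each). The tables hold coding mRNA only, so the snoRNAs themselves were not measured. 1 box C/D snoRNA of each of 4 hosts is printed from the GENCODE M21 transcripts (GRCm38) to show what these genes carry besides their protein, 5′ to 3′, with box C (TGATGA) and box D (CTGA) in capitals. They lie at chr1:59704790-59704873 on the plus strand (Snord11, in Nop58), chr2:130275506-130275573 on the plus strand (Snord110, in Nop56), chr14:31014287-31014366 on the minus strand (Snord69, in Gnl3) and chr17:71631281-71631365 on the plus strand (Snord92, in Wdr43).
Snord11: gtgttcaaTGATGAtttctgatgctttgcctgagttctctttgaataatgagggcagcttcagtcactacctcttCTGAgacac
Snord110: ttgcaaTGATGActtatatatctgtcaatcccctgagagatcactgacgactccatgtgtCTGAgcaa
Snord69: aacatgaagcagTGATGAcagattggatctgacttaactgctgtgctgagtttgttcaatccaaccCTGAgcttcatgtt
Snord92: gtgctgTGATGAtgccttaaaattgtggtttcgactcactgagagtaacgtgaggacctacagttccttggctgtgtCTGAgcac

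Small subunit processing was the largest step, with 31 members, all tested. Of them 21 fell (67.7%), 1 rose and 9 did not pass, and the median log2 fold change was -0.25. Their sum was 3143 ± 35.2 CPM in IFN gamma cells and 3772 ± 37.8 CPM in Ctrl cells (± SD, n = 3 each), a mean that fell by 16.7%. The members were then read by the sub-complex they are known to form, assigned after the values were seen.

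The UTP-A complex binds the start of the nascent precursor RNA first in yeast. All 5 of its KEGG members were lower, and subunits outside the KEGG list are not counted here. The sum of the 5 was 719 ± 24.4 CPM in IFN gamma cells and 951 ± 17.0 CPM in Ctrl cells, a mean that fell by 24.4%. Utp4 (chromosome 8, 106893640 to 106923094), a WD-repeat protein of this complex, had 147, 142 and 146 CPM in IFN gamma cells, against 212, 205 and 204 CPM in Ctrl cells. The highest IFN gamma library was far below the lowest Ctrl library (log2 fold change -0.51 ± 0.0212, adjusted p = 2.32e-08). Heatr1, the mammalian counterpart of yeast Utp10, had 159, 162 and 156 CPM in IFN gamma cells, against 199, 198 and 199.7 CPM in Ctrl cells, groups tight within themselves and well apart (log2 fold change -0.32, adjusted p = 1.63e-05). Wdr43, the counterpart of yeast Utp5, had 220.1, 214 and 243 CPM in IFN gamma cells, against 283, 304 and 277 CPM in Ctrl cells, again without overlap (log2 fold change -0.35, adjusted p = 3.36e-05). Utp15 (log2 fold change -0.48) and Wdr75 (log2 fold change -0.42) are the other KEGG members of this complex.

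The UTP-B complex, which joins the processome after UTP-A in yeast, had 5 of 6 members lower, with a median log2 fold change of -0.30. Pwp2 (NCBI Gene 110816, chromosome 10, 78170909 to 78185171), a WD-repeat scaffold protein, fell most of all members. It had 68.5, 68.1 and 65.2 CPM in IFN gamma cells, against 108, 114 and 109 CPM in Ctrl cells. The groups were separated by many times their own spread, and the mean fell by 39.0% (log2 fold change -0.71 ± 0.0327, adjusted p = 4.83e-10). Wdr3 (log2 fold change -0.35), Utp18 (-0.34), Wdr36 (-0.25) and Utp6 (-0.19) also fell. The Utp6 call was lost without IFN gamma replicate 2 (adjusted p = 0.056), within 0.000414 to 0.056 over all 15 alternatives. Tbl3, the sixth member, did not pass (log2 fold change -0.08, adjusted p = 0.284).

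The UTP-C complex contains Nol6, Rrp7a and the subunits of casein kinase CK2, a kinase with many other substrates. Nol6 (NCBI Gene 230082, chromosome 4, 41114427 to 41124339), the counterpart of yeast Utp22, had 78.5, 75.6 and 69.3 CPM in IFN gamma cells, against 118, 122 and 122 CPM in Ctrl cells. The gap was wide in every library, and the mean fell by 38.2% (log2 fold change -0.70 ± 0.0555, adjusted p = 1.71e-09). Rrp7a fell too (log2 fold change -0.22, adjusted p = 0.00185). Of the CK2 genes, the catalytic subunit gene Csnk2a2 fell (log2 fold change -0.17, adjusted p = 0.0212). That call was lost without Ctrl replicate 2 (adjusted p = 0.118) and without IFN gamma replicate 2 (0.0856), within 0.00157 to 0.118 over all 15 alternatives. The other catalytic subunit gene Csnk2a1 (log2 fold change 0.02) and the regulatory subunit gene Csnk2b (-0.02) did not pass.

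The MPP10 complex holds Mphosph10, Imp3 and Imp4, which in yeast help pair the snoRNA U3 with the precursor, and all 3 fell. Imp4 had 57.7, 58.4 and 57.4 CPM in IFN gamma cells, against 71.9, 70.3 and 74.9 CPM in Ctrl cells, with no overlap (log2 fold change -0.32, adjusted p = 7.01e-05). Mphosph10 was lower (log2 fold change -0.27, adjusted p = 0.00561). Its call was lost with the replicate number as a block (log2 fold change -0.16, adjusted p = 0.107), within 0.000102 to 0.107 over all 15 alternatives. Imp3 fell as well (log2 fold change -0.20, adjusted p = 0.0243). The Imp3 call was lost in 5 of 15 alternatives, with adjusted p from 0.00295 to 0.179. These were DESeq2 (0.0541), the replicate number as a block (0.179), and Ctrl replicate 3 (0.0511), Ctrl replicate 4 (0.0596) or IFN gamma replicate 1 (0.0983) left out.

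Of 8 further nucleolar factors of the small subunit, 3 fell, 1 rose and 4 did not pass. Rcl1 (chromosome 19, 29101375 to 29143851), a cyclase-like protein that binds the GTPase Bms1, had 75.0, 78.4 and 74.3 CPM in IFN gamma cells, against 114, 115 and 116 CPM in Ctrl cells. Its libraries were nearly equal within a group and the mean fell by 33.9% (log2 fold change -0.60 ± 0.0251, adjusted p = 5.38e-09). Nat10, which acetylates small subunit ribosomal RNA, had 84.5, 84.9 and 81.3 CPM in IFN gamma cells, against 117, 111 and 114 CPM in Ctrl cells, also far apart (log2 fold change -0.45 ± 0.0317, adjusted p = 4.67e-07). Tcof1, which encodes treacle, a nucleolar protein that links RNA polymerase I to early processing, had 235, 222 and 212 CPM in IFN gamma cells, against 254, 260.0 and 267 CPM in Ctrl cells. The Tcof1 groups did not overlap (log2 fold change -0.22, adjusted p = 0.00174).

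Emg1, a methyltransferase of small subunit ribosomal RNA, was the only one of the 31 small subunit members to rise in the edgeR test. It had 119.8, 120.7 and 120.4 CPM in IFN gamma cells, against 112, 112 and 103 CPM in Ctrl cells. The groups were apart by a small gap (log2 fold change 0.14, adjusted p = 0.0423). The call was lost in 10 of 15 alternatives, with adjusted p from 0.0369 to 0.335; these included Ctrl replicate 3 (0.0766), Ctrl replicate 4 (0.287), IFN gamma replicate 1 (0.104) or IFN gamma replicate 2 (0.113) left out. Bms1 had 126.4, 126.0 and 126.3 CPM in IFN gamma cells, against 134, 134 and 137 CPM in Ctrl cells. Its groups did not overlap but the difference did not pass (log2 fold change -0.10, adjusted p = 0.113). The endonuclease Fcf1 (log2 fold change 0.04), Utp14a (0.04) and Utp14b (0.11) did not pass either.

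Late maturation of the small subunit takes place largely in the cytoplasm, and 2 of its 4 members fell. Nob1, the endonuclease that makes the final cut of the small subunit RNA, fell (log2 fold change -0.38, adjusted p = 1.74e-05). Riok2, an atypical kinase of this step, also fell (log2 fold change -0.37, adjusted p = 3.24e-05), while its relative Riok1 did not pass (log2 fold change -0.05). The adenylate kinase-like ATPase Ak6 lay just outside the threshold with a positive value (log2 fold change 0.16, adjusted p = 0.0702). It passed without Ctrl replicate 2 (adjusted p = 0.0359) and without IFN gamma replicate 1 (0.0277), within 0.0277 to 0.318 over all 15 alternatives.

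**Figure D2:**
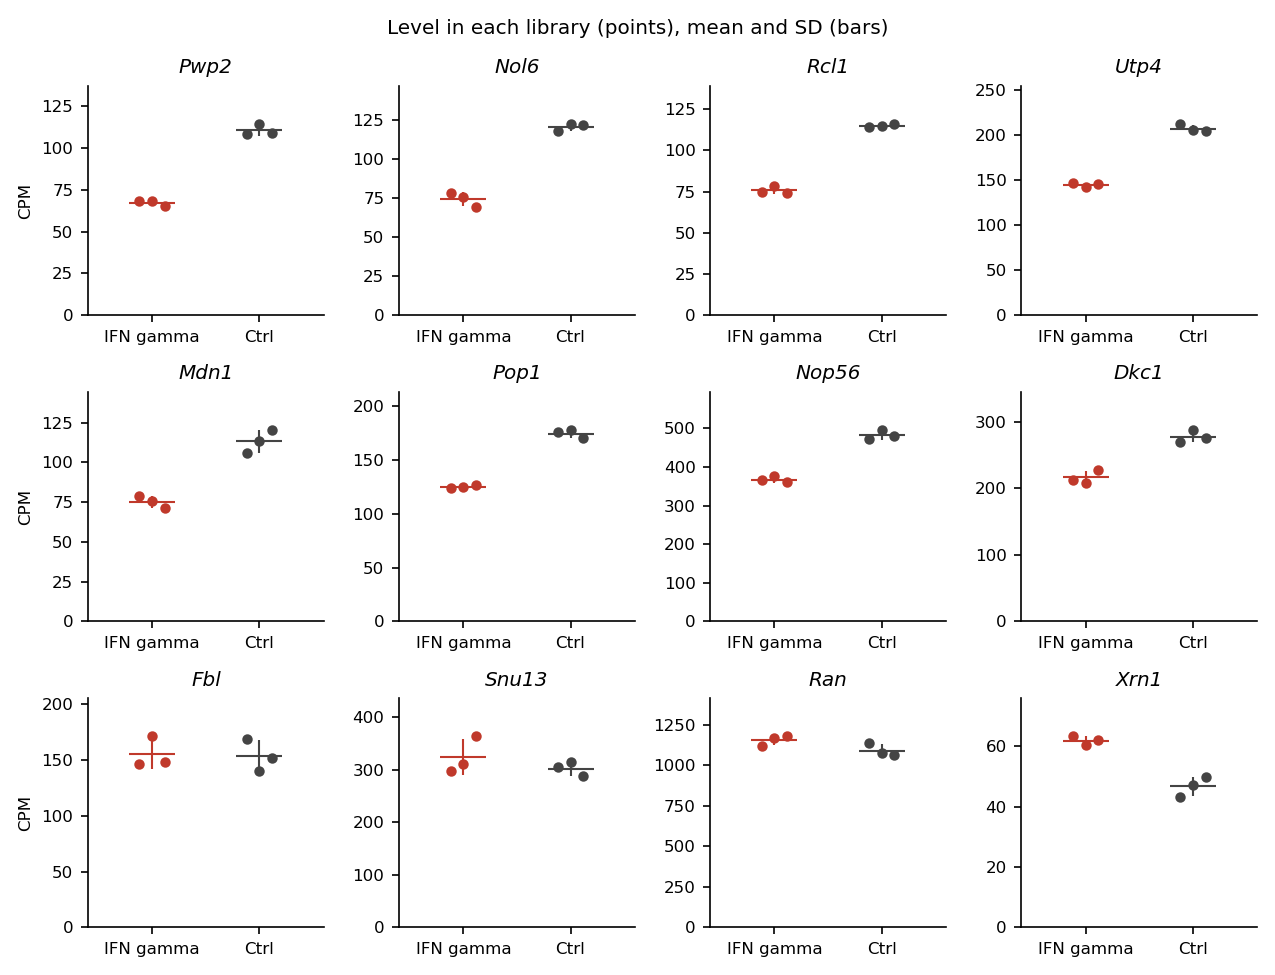
CPM of 12 members in each library, IFN gamma left of Ctrl; points are libraries and bars give the mean and SD of 3. For Pwp2, Nol6, Rcl1, Utp4, Mdn1, Pop1, Nop56 and Dkc1 all IFN gamma points lie below all Ctrl points, Fbl and Snu13 overlap, Ran overlaps, and Xrn1 lies higher in IFN gamma cells.

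Trimming nucleases were mixed. Of 14 tested, 3 fell, 2 rose and 9 did not pass, and their summed level was 789.8 ± 9.89 CPM in IFN gamma cells and 846 ± 10.4 CPM in Ctrl cells (± SD, n = 3 each). RNase MRP cuts the first internal spacer of the precursor and shares most of its proteins with RNase P, which processes transfer RNA. Pop1 (chromosome 15, 34495311 to 34530653), the large scaffold of both enzymes, had 124, 125 and 127 CPM in IFN gamma cells, against 175, 177 and 170.1 CPM in Ctrl cells. The groups were tight and far apart (log2 fold change -0.48 ± 0.02, adjusted p = 7.7e-08). Rpp38 was low, with 8.68, 6.5 and 8.48 CPM in IFN gamma cells, against 12.3, 11.1 and 10.6 CPM in Ctrl cells, still without overlap (log2 fold change -0.53 ± 0.147, adjusted p = 0.000985). Pop4, another shared subunit, had 14.1, 16.8 and 16.5 CPM in IFN gamma cells, against 13.5, 12.8 and 13.7 CPM in Ctrl cells, a narrow separation in the other direction (log2 fold change 0.24, adjusted p = 0.0382). The Pop4 call was lost in 8 of 15 alternatives, with adjusted p from 0.0141 to 0.167. These were DESeq2 (0.108), upper-quartile (0.106) and total-count scaling (0.138). The others were Ctrl replicate 2 (0.0653), Ctrl replicate 3 (0.137), Ctrl replicate 4 (0.0752), IFN gamma replicate 2 (0.167) or IFN gamma replicate 4 (0.0972) left out. Rpp40 lay just outside the threshold, with 5.73, 6.55 and 8.24 CPM in IFN gamma cells, against 7.98, 9.91 and 7.91 CPM in Ctrl cells. Its groups overlapped (log2 fold change -0.33, adjusted p = 0.0535). It passed in 6 of 15 alternatives, with adjusted p from 0.00494 to 0.603. These were RLE (0.0447), upper-quartile (0.0236) or total-count scaling (0.0179) and no filter (0.0323). The others were Ctrl replicate 4 (0.0469) or IFN gamma replicate 4 (0.00494) left out. Pop5, Pop7, Rpp25l and Rpp30 lay between -0.15 and 0.07 and did not pass.

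The 2 related 5′-to-3′ exonucleases moved in opposite directions. Xrn1 (chromosome 9, 95954750 to 96057806), a cytoplasmic enzyme that degrades decapped mRNA, had 63.4, 60.3 and 62.1 CPM in IFN gamma cells, against 43.3, 47.1 and 49.7 CPM in Ctrl cells. Every IFN gamma library was above every Ctrl library, the mean was 32.5% higher, and this was the largest rise among the members (log2 fold change 0.41 ± 0.0612, adjusted p = 1.77e-05). Xrn2, the nuclear enzyme that trims ribosomal precursors, had 185, 172 and 187 CPM in IFN gamma cells, against 211, 212 and 196 CPM in Ctrl cells. The groups did not overlap (log2 fold change -0.19, adjusted p = 0.00799), but the call was lost without IFN gamma replicate 2 (0.0703), within 0.000467 to 0.0703 over all 15 alternatives. Drosha, best known for cutting microRNA precursors, had 152, 157 and 152 CPM in IFN gamma cells, against 150.1, 143 and 146 CPM in Ctrl cells. Its groups did not overlap, yet the difference did not pass (log2 fold change 0.07, adjusted p = 0.28), and its sign turned on total counts. The exonucleases Rexo1 (log2 fold change -0.10), Rexo2 (0.05) and Rexo5 (-0.24) did not pass.

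Large subunit processing had 5 falls among 8 members, with 3 not passing and a median log2 fold change of -0.24. The sum was 725.9 ± 25.05 CPM in IFN gamma cells and 860.9 ± 19.0 CPM in Ctrl cells (± SD, n = 3 each), a mean that fell by 15.7%. Mdn1 (NCBI Gene 100019, chromosome 4, 32657114 to 32775217), a very large AAA ATPase that pulls assembly factors off the precursor, had 78.8, 75.6 and 71.3 CPM in IFN gamma cells, against 106, 114 and 120.3 CPM in Ctrl cells. The groups were well apart and the mean fell by 33.6% (log2 fold change -0.59 ± 0.0669, adjusted p = 4.77e-08). Gtpbp4, the counterpart of the yeast GTPase Nog1, had 99.0, 100.3 and 110.1 CPM in IFN gamma cells, against 135, 144 and 128 CPM in Ctrl cells, also without overlap (log2 fold change -0.40 ± 0.0701, adjusted p = 1.04e-05). Gnl3, which encodes the GTPase nucleostemin, had 118, 117 and 133 CPM in IFN gamma cells, against 155, 159 and 159 CPM in Ctrl cells. Its lowest Ctrl library was above all IFN gamma libraries (log2 fold change -0.36, adjusted p = 1.96e-05). Gnl2, a related GTPase, had 77.3, 77.8 and 83.9 CPM in IFN gamma cells, against 98.6, 96.8 and 97.5 CPM in Ctrl cells, and was likewise separated (log2 fold change -0.29, adjusted p = 0.000151).

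Of the other two AAA ATPases of the large subunit, 1 passed. Spata5, the counterpart of yeast Drg1, fell with overlapping groups (log2 fold change -0.18, adjusted p = 0.0332). Its call was lost without Ctrl replicate 2 (adjusted p = 0.107), Ctrl replicate 3 (0.073), IFN gamma replicate 1 (0.0551) or IFN gamma replicate 2 (0.193), within 0.00334 to 0.193 over all 15 alternatives. Nvl did not pass (log2 fold change -0.09). The GTPase Gnl3l (log2 fold change -0.03), a relative of nucleostemin, and the RNA-binding protein Rbm28 (0.05) did not pass.

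Of 6 tested export factors, 1 fell and 5 did not pass. Nmd3 (chromosome 3, 69722055 to 69749047), the adaptor that joins the large subunit to the exportin, had 100.2, 98.3 and 116 CPM in IFN gamma cells, against 123, 134 and 121 CPM in Ctrl cells. The groups did not overlap (log2 fold change -0.27 ± 0.0862, adjusted p = 0.00152). The exportin itself, Xpo1, which carries many other cargoes, had 348, 342 and 397 CPM in IFN gamma cells, against 353, 386 and 372 CPM in Ctrl cells, with overlapping groups (log2 fold change -0.03, adjusted p = 0.729) and a sign that turned without IFN gamma replicate 2. The GTPase Ran, the most abundant member, had 1123, 1170.4 and 1181 CPM in IFN gamma cells, against 1141, 1074 and 1062 CPM in Ctrl cells, also overlapping (log2 fold change 0.08, adjusted p = 0.201). The mRNA export factor genes Nxf1 (log2 fold change 0.06), Nxt1 (-0.12) and Nxt2 (-0.14) did not pass. The export sum, most of it Ran and Xpo1, was 1879 ± 64.5 CPM in IFN gamma cells and 1841 ± 27.5 CPM in Ctrl cells (± SD, n = 3 each), a difference smaller than the spread.

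Cytoplasmic maturation of the large subunit had 1 fall among 4 members. Lsg1, the GTPase that releases Nmd3, had 78.8, 82.8 and 82.0 CPM in IFN gamma cells, against 96.4, 87.0 and 90.8 CPM in Ctrl cells. Its groups were narrowly apart (log2 fold change -0.17 ± 0.0482, adjusted p = 0.0185). The call was lost without Ctrl replicate 2 (adjusted p = 0.0834) and without IFN gamma replicate 1 (0.0564), within 0.00125 to 0.0834 over all 15 alternatives. Efl1 and Sbds act together to release Eif6, which keeps the subunits from joining too early. Efl1 was lower without overlap but did not pass (log2 fold change -0.16, adjusted p = 0.0816). Sbds (log2 fold change 0.02, adjusted p = 0.774) and Eif6 (-0.03, adjusted p = 0.713) did not pass, and their signs turned under some scalings or with a library left out.

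**Figure D3:**
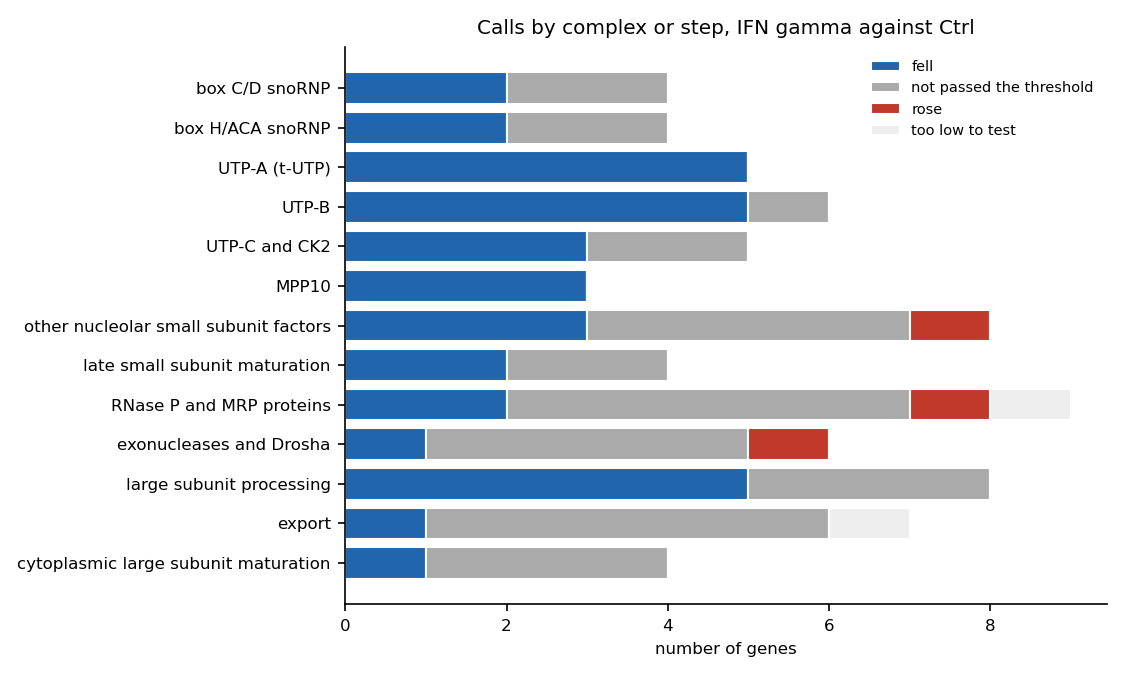
Number of members that fell, did not pass, rose or were not tested in each step or sub-complex. The UTP-A (5 of 5) and MPP10 (3 of 3) bars hold falls only, whereas most export, cytoplasmic large subunit and exonuclease members did not pass.

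**Figure D4:**
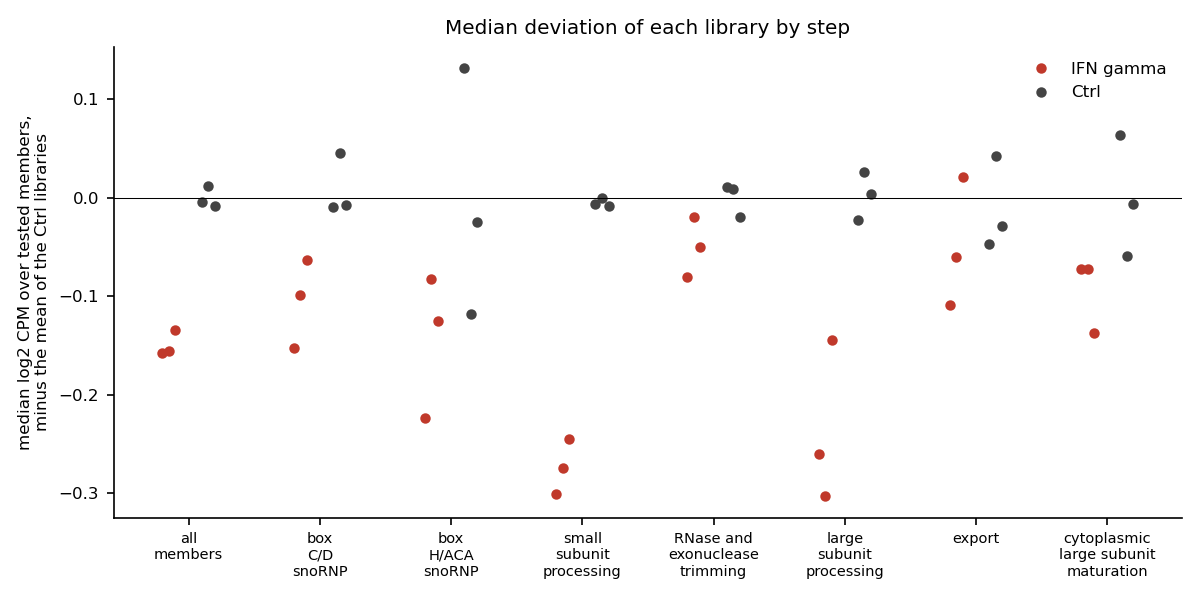
Median deviation of log2 CPM from the Ctrl mean over the members of each step, per library, IFN gamma left of Ctrl. The small subunit medians of the IFN gamma libraries lie at -0.301, -0.274 and -0.245, below all Ctrl libraries, whose medians lie between -0.009 and 0.

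Members were also counted by the Gene Ontology term for the nucleolus in the deposited tables, with no test between the counts. Of 56 tested members with the term, 30 fell and 2 rose (median log2 fold change -0.20). Of 15 tested members without it, 5 fell and 1 rose (median -0.12). Position in the genome was shared little, as members lay on 20 chromosomes. A part of the members overlaps another protein-coding gene, 17 of 74, and whether strand was used in counting is not given. Of the 35 members that fell, 10 overlap another gene, among them Nop56, Dkc1, Gnl3, Gnl2, Nat10, Wdr3 and Rpp38, as does Emg1, and the part of the neighbours in these counts was not tested. Among the 55 tested members with no such overlap, 25 fell. The 7 members with counts that were not whole were all among those that did not pass.

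**Figure D5:**
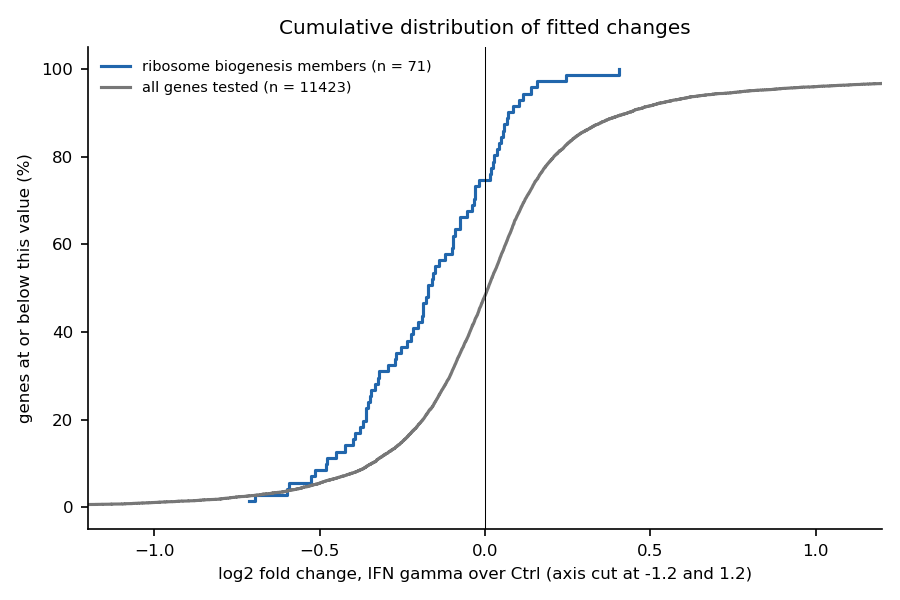
Cumulative share of genes by log2 fold change (IFN gamma over Ctrl) for the 71 tested members and all 11423 genes tested, with the axis ending at -1.2 and 1.2. The curve of the members lies to the left, with medians of -0.17 and 0.01, and 74.6% of members are under 0, against 48.3% of all genes tested.

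Promoters were searched on both strands for motifs, since many members moved together. RefSeq (GRCm38.p6) gave a window from 250 bases before to 50 after the start for 59 of the 71 tested members and 9159 of all genes tested. The E-box CACGTG, the sequence bound by Myc with Max among other factors, was in 12 of the 59 (20.3%), against 1093 (11.9%) of all genes tested. It was in 9 of 29 members that fell (31.0%) and 3 of 27 that did not pass (11.1%). Members with the E-box had a median log2 fold change of -0.30 and those without it -0.15, against -0.02 and 0.01 over all genes tested. Among the members that fell, however, the medians were close, -0.34 with the E-box and -0.36 without it. The ETS motif CCGGAAG was in 22 members (37.3%, against 21.4% of all genes tested), in 10 of 29 that fell (34.5%) and 11 of 27 that did not pass (40.7%). Members with the ETS motif had a median log2 fold change of -0.16 and those without it -0.19. The interferon-gamma activated site TTCNNNGAA was in 5 members (8.47%, against 8.39%) and the interferon-stimulated response element in 1 (1.69%, against 3.78%). Over all 27025 promoters of the RefSeq table, 8.09% held the E-box, 9.93% the ETS motif, 9.55% the activated site and 3.99% the response element. A match is a string of letters and not a measured binding site. The 150 bases before the start of 3 members that fell are printed as examples of an E-box there. The windows read 5′ to 3′ in the direction of the gene, with the E-box in capitals. They are at chr11:93885767-93885916 on the minus strand (Utp18), chr1:34439679-34439828 on the plus strand (Imp4) and chr3:69721905-69722054 on the plus strand (Nmd3).
Utp18: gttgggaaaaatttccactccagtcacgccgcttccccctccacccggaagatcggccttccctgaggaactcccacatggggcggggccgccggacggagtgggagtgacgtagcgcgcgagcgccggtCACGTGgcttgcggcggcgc
Imp4: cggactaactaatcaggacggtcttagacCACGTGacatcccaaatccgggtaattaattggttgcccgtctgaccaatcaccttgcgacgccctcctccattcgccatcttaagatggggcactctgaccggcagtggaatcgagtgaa
Nmd3: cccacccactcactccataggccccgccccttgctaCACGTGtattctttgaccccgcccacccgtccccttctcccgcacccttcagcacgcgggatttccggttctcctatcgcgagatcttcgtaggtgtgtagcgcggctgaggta
The E-box begins 20 bases before the start in Utp18, 121 before it in Imp4 and 114 before it in Nmd3. These 3 were chosen because their E-box lies wholly within the printed bases. In Mdn1, Rpp38, Utp4, Wdr43 and Xrn2, which also fell, it begins after the start, at base 39, 11, 16, 18 and 22. In Rrp7a, the remaining fallen member with an E-box, it begins 208 bases before the start. Myc, a transcription factor known to drive genes of ribosome production, had 87.0, 91.3 and 86.0 CPM in IFN gamma cells, against 145, 128 and 128 CPM in Ctrl cells. It was lower in every IFN gamma library (log2 fold change -0.60 ± 0.0661, adjusted p = 3.03e-08), and a link between Myc and the members was not tested.

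Genes of ribosome production outside the KEGG list were counted in the same fit. Of all 11423 genes tested, 18.1% fell and 19.9% rose, the shares to set beside the counts of each list. Of the genes named from here on, Cd3eap, Tsr1, Ccdc86, Bop1 and Dis3 overlap another protein-coding gene, and the part of these neighbours was not tested. Of 15 genes of the RNA polymerase I machinery, 9 fell and 6 did not pass, with a median log2 fold change of -0.21. The polymerase subunit gene Polr1b had 40.9, 41.3 and 39.1 CPM in IFN gamma cells, against 66.5, 67.1 and 66.8 CPM in Ctrl cells, far apart (log2 fold change -0.73 ± 0.0246, adjusted p = 1.22e-09). Ubtf, which binds ribosomal DNA, had 253, 237 and 224 CPM in IFN gamma cells, against 325, 309 and 329.7 CPM in Ctrl cells (log2 fold change -0.43, adjusted p = 1.34e-06). Cd3eap, another subunit, fell by 0.64 on the log2 scale. The initiation factor gene Rrn3 fell by 0.21 on the log2 scale. The largest subunit gene, Polr1a, fell (log2 fold change -0.15, adjusted p = 0.0269). The call was not kept without Ctrl replicate 2 (adjusted p = 0.0547), Ctrl replicate 4 (0.0537), IFN gamma replicate 2 (0.073) or IFN gamma replicate 4 (0.0792), within 0.00174 to 0.0792 over all 15 alternatives.

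Of 28 further small subunit factors, 19 fell, 2 rose and 7 did not pass (median log2 fold change -0.24). Tsr1, a GTPase-like factor of late maturation, fell by 0.53 on the log2 scale. Nolc1, a chaperone of snoRNPs, fell by 0.46. Noc4l, the counterpart of yeast Noc4, rose by more than any member changed, with 170.0, 167 and 162 CPM in IFN gamma cells, against 88.9, 87.9 and 87.9 CPM in Ctrl cells (log2 fold change 0.92 ± 0.0212, adjusted p = 2.49e-12). Of 47 further large subunit factors, 34 fell and 13 did not pass (median -0.26). Rrs1, which in yeast helps bring the 5S particle to the large subunit, had 82.1, 81.9 and 80.9 CPM in IFN gamma cells, against 137, 137 and 131 CPM in Ctrl cells (log2 fold change -0.73, adjusted p = 1.85e-10). Ppan fell by 0.74 and Ccdc86 by 0.60 on the log2 scale. Pes1 and Bop1, partners in 1 complex, fell by 0.22 and 0.23. Neither gene of the abundant nucleolar proteins nucleophosmin and nucleolin passed. Npm1 had 1327, 1375 and 1499 CPM in IFN gamma cells, against 1332, 1422 and 1306 CPM in Ctrl cells, overlapping, and its sign turned with upper-quartile and total-count scaling (log2 fold change 0.05, adjusted p = 0.516). Ncl had 2531, 2471 and 2592 CPM in IFN gamma cells, against 2708, 2720.5 and 2712 CPM in Ctrl cells. The Ncl groups did not overlap, but the difference did not pass (log2 fold change -0.10, adjusted p = 0.107), although it did on total counts (0.00365), with upper-quartile scaling (0.0169) and with DESeq2 (0.0321), within 0.00365 to 0.332 over all 15 alternatives.

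The RNA exosome degrades spacers from the other end. Among 14 of its genes, 4 fell, 1 rose and 9 did not pass, beside 18.1% falling and 19.9% rising of all genes tested. Their median log2 fold change was -0.11. Exosc6 fell by 0.55 and Exosc1 by 0.32 on the log2 scale. The catalytic subunit gene Dis3 fell by 0.18 (adjusted p = 0.0123). Its call was lost without IFN gamma replicate 2 (0.0805) and with the replicate number as a block (0.111), within 0.000745 to 0.111 over all 15 alternatives. The exosome cofactor gene C1d, named after its values were seen, was the 1 rise (log2 fold change 0.29 ± 0.162, adjusted p = 0.03). It had 35.8, 41.8 and 47.7 CPM in IFN gamma cells, against 30.2, 39.2 and 33.2 CPM in Ctrl cells, so its groups overlapped. The C1d call was kept in 8 of 15 alternatives, with adjusted p from 2.2e-05 to 0.147. It was lost with upper-quartile scaling (0.0647), on total counts (0.0858) and with no filter (0.0681). It was also lost with Ctrl replicate 2 (0.125), Ctrl replicate 4 (0.109), IFN gamma replicate 2 (0.0862) or IFN gamma replicate 4 (0.147) left out.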

How the data were processed

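Column-purified RNA of 6 IEC 4.1 samples was sequenced on DNBSEQ, per the labels' protocols. The submitters' processing notes name HISAT2, HISAT, GRCm38.p6 and mm10 without roles. Which program counted the reads was not given in the sources used here. The authors deposited estimated counts for 14701 coding genes per sample, of which 6.8% to 7.37% were not whole. TPM values were deposited by the authors beside them and are used only for levels. FPKM values were also deposited and entered no result. No gene was at 0 in all 3 Ctrl libraries and 673 were at 0 in all 3 IFN gamma libraries, so a gene silent in Ctrl cells is not in the tables analysed here.

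Counts were rounded and tested over 11423 genes with edgeR 4.0.16 in R 4.3.3 (filterByExpr with minimum count 10, TMM factors of 0.9717 to 0.9816 in IFN gamma and 1.016 to 1.033 in Ctrl libraries, glmQLFit with robust=TRUE, glmQLFTest), with Benjamini-Hochberg adjustment over all genes tested and 0.05 as the threshold. For CPM, counts were divided by the effective library size. The SE is between replicates of log2 CPM with a prior count of 2, not from the fit. Members' positions are from RefSeq GRCm38.p6, on which all 74 were placed. The deposited starts are rounded, so the 2 sources were compared only coarsely. Within that rounding 71 had the deposited start, and Spata5, Csnk2b and Utp14b are listed elsewhere in the deposited tables. The steps group the KEGG members by textbook role. The named genes are, by rule, the members of smallest adjusted p in each step and direction, the most abundant of each step, the largest changes, those next to the threshold, a chosen set of well-known members, and, from each further list, at most 3 genes by adjusted p; other members are named to account for each of them. The members, lists and rule were chosen with earlier results of these data known. The 15 alternatives were scaling by total count, by upper quartile or by RLE, no filter, at least 1 CPM in 3 samples, robust=FALSE, the replicate number as a block, DESeq2 1.42.0, limma-voom (limma 3.58.1) and each library left out in turn. Members with counts that were not whole were also left out, an alternative added after the data were seen.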

Additional observations from a re-analysis of the deposited data

How the results depend on the processing

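The count of members that fell stayed between 29 and 41 over the 15 alternatives, lowest without IFN gamma replicate 2 and highest on total counts. Of the 35 members that fell, 26 passed as lower in all 15 alternatives, and of the 3 that rose, Xrn1 did so as higher. Of the 33 that did not pass, 6 (Bms1, Efl1, Nvl, Nxt1, Rpp40 and Tbl3) passed as lower in at least 1 alternative. Scaling moved the balance of all genes: with upper-quartile scaling 15.5% rose and 24.7% fell, with 1 member rising and 39 (54.9%) falling; on total counts 14.4% rose and 27.3% fell, with 1 member rising and 41 (57.7%) falling. The median of all genes tested was then -0.04 and -0.06, against 0.01, and that of the members -0.23 and -0.24. DESeq2 called 1 rise and 34 falls, and limma-voom 3 and 35. With 1 library left out, 1 to 3 members rose and their median was -0.19 to -0.16. Without the members whose counts were not whole, 3 rose and 35 fell.

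By step, the small subunit median was -0.31 with upper-quartile scaling, -0.33 on total counts and -0.29 to -0.23 with 1 library left out. Its count of rises was 0 without a filter, with DESeq2 and with total-count, upper-quartile or RLE scaling, and 0 to 2 with 1 library left out. Trimming nucleases had 1 rise with upper-quartile scaling, total counts and DESeq2, 1 to 2 with 1 library left out, and medians of -0.12 (upper-quartile) and -0.14 (total counts). The box C/D median was -0.16 on total counts, and its falls numbered 1 to 2 with 1 library left out, as did those of box H/ACA. On total counts 2 export members fell. Cytoplasmic large subunit factors had 2 falls with upper-quartile scaling and on total counts, and 0 to 1 with 1 library left out.

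Genes near no change turned sign. Values are given for those named by the rule, of which Npm1 is not a member. The members Csnk2a1, Rpp30, Utp14a, Rexo2, Fcf1, Csnk2b, Nxf1, Pop5 and Rbm28 also turned sign in at least 1 alternative. Fbl was at -0.04 (upper-quartile), -0.06 (total counts), -0.06 (without Ctrl replicate 3), -0.0029 (without Ctrl replicate 4) and -0.06 (without IFN gamma replicate 2). Sbds was at -0.03 (upper-quartile), -0.05 (total counts) and -0.01 (without Ctrl replicate 3), and Drosha at -0.001 (total counts). Eif6 was at 0.04 (without Ctrl replicate 2) and 0.02 (without IFN gamma replicate 4), Gar1 at 0.02 (without Ctrl replicate 2), Xpo1 at 0.01 (without IFN gamma replicate 2), and Npm1 at -0.0041 (upper-quartile), -0.02 (total counts) and -0.0019 (without IFN gamma replicate 4). With 1 library left out, values reached -0.09 for Eif6 (without Ctrl replicate 3) and 0.09 for Fbl (without Ctrl replicate 2). Sbds reached 0.05 (without Ctrl replicate 2), Xpo1 -0.10 (without IFN gamma replicate 4) and Npm1 0.08 (without IFN gamma replicate 1). The cause of these moves was not tested.

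The groups share replicate numbers 2 and 4, whose samples deviated from their group means with correlations of 0.128 and -0.0899. Whether samples of the same number were paired is not given, and with 3 samples per group these correlations cannot decide it. With the replicate number as a block, 4 members rose and 31 fell, with a median of -0.15; box C/D had 1 rise (Snu13) and 1 fall, Fbl was at -0.0064 and Xpo1 at 0.03. Calls lost under the block included Mphosph10 (log2 fold change -0.16, adjusted p = 0.107), Nop58 (0.1), Imp3 (0.179) and Spata5 (0.143). Rpp40 and Rpp38 reached at most 9.91 and 12.3 CPM in any library and had SEs of 0.184 and 0.147 on the log2 scale. Utp14b, at most 7.73 CPM, had an SE of 0.0649, and the part of depth in these SEs was not tested.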
